A study of Homo sapiens with 6 samples.

Results

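The core spliceosome genes described here are the rows of the deposited gene table that carry the KEGG spliceosome annotation, after the SR protein, hnRNP, TRA2, HSPA, THOC and EIF families and PQBP1, TXNL4A, WBP11, PRPF8, SNRNP200, EFTUD2, PRPF6, SNRNP40 and PRPF31 were set aside by name. This left 94 of the 132 annotated genes, out of 32679 rows in the table. The rule used names and annotation only, not measured values. The values are FPKM, the fragments mapped to a gene scaled by the length of its transcript and by the mapped fragments of the library, so that genes of different length can be set side by side.

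The spliceosome removes introns from pre-mRNA. The U1 small nuclear ribonucleoprotein (snRNP) binds the 5′ splice site and the U2 snRNP the branch site, the U4/U6.U5 tri-snRNP then joins, and RNA helicases drive the rearrangements, with the PRP19 complex holding the active site in place for both catalytic steps. PQBP1, the protein depleted in this study, is a component of the spliceosome before activation and contacts proteins of the U5 snRNP. Its U5 partners are among the genes set aside by name. The comparison of the groups shows whether the RNA of the remaining spliceosome genes differed between shPQBP1 and shNC.

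HEY is an established human ovarian cancer cell line. Poly(A) RNA, captured on oligo-dT beads, was sequenced from 3 shNC samples, which the labels give as genotype NC with no treatment, and from 3 shPQBP1 samples, which they give as PQBP1 knockdown with doxycycline at 1 µg/ml, all at day 3 and described as biological triplicates. The hairpin was carried by a lentiviral vector, with selection for stable cells, and nothing says whether the samples of a group were grown as separate cultures. By the labels hairpin and doxycycline differed together between the groups, and their parts in any difference cannot be told apart. Whether the shNC cells were given doxycycline is not stated beyond the labels, and the study's text gives a shorter time on doxycycline for PQBP1-depleted HEY cells than the day in the labels.

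PQBP1 itself was at 7.18, 6.67 and 6.93 FPKM in shNC and at 1.68, 1.72 and 1.44 in shPQBP1, a log2 fold change of -2.04 (SE 0.10) in the direction of the labels. Tested alone by exact permutation of the samples, two-sided, it reached p = 0.1, and a design of 3 against 3 cannot go lower. The FPKM of all rows summed to between 278285.8 and 318484.3 per sample, read depth is unknown because the file holds no counts, and of the 32679 rows between 26.5% and 29.8% were at 0. Sample 1 of shNC stood apart: its correlations with the other samples ran from 0.926 to 0.955, and estimates without it are given beside those of several genes that it moved. The epithelial keratins KRT8 and KRT18 were at 52.8 to 65.6 and 76.6 to 94.6 FPKM and VIM at 1112 to 1343, while the epithelial cadherin CDH1 (0 to 0.06) and the ovarian carcinoma antigen MUC16 (0 to 0.01) were at or near 0. The epithelial list of 9 also holds ovarian carcinoma markers and VIM. Of its 5 expressed markers, 1 (PAX8) was higher at an unadjusted p under 0.05 and 0 passed the adjusted threshold in limma. With each sample's trend on transcript GC content and length removed, as described further on, all 5 (KRT8, KRT18, KRT19, VIM and PAX8) were higher at an adjusted p under 0.05. Markers of the list with a mean below 1 FPKM were not tested, and 2 of them were lower in the mean. WT1 was at 0.63, 0.71 and 0.68 in shNC and at 0.31, 0.34 and 0.45 in shPQBP1, without overlap. EPCAM was at 0.91, 1.13 and 1.02 and at 1.02, 0.79 and 0.82, with overlap. Of the blood and endothelial markers PTPRC was at 0 in all 6 samples, CD14, CD79A, PECAM1 and VWF were at or below 0.25, and CDH5 was at 2.11 to 3.64.

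Most core spliceosome genes were expressed. Of the 94, 90 passed the filter of a mean of at least 1 FPKM over the 6 samples, with gene means from 1.24 (LSM8) to 144 FPKM (PCBP1) and a median of 21.7 against 5.54 for all 11413 genes that passed. The 4 that did not pass were PRPF40B (0.48, 0.49 and 0.48 in shNC and 0.37, 0.34 and 0.34 in shPQBP1), U2AF1L4 (0.52 to 1.02 over the 6 samples), RBMXL2 (0.06 in 1 sample and 0 in the others) and the readthrough gene ISY1-RAB43. Together the 94 genes summed to 2875.2, 2730.2 and 2805.6 FPKM in shNC and to 2581.8, 2613.2 and 2558.2 in shPQBP1. The FPKM of all rows also summed to less in shPQBP1, and as a share of it the core sum was 0.903% to 0.926% in shNC and 0.909% to 0.919% in shPQBP1. Such sums are weighted to the highest genes. Per gene, log2(FPKM + 0.1) minus the mean of the 6 samples had medians of 0.049 to 0.057 in shNC and -0.042 to -0.010 in shPQBP1. Over all genes tested these medians were 0.007 to 0.013 and 0.004 to 0.027. In whole-culture RNA, fewer cells that use a gene and less RNA per cell cannot be told apart.

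No core spliceosome gene passed an adjusted p of 0.05 in limma with Benjamini-Hochberg adjustment over all 11413 genes, a call made for 2.91% of all genes. At an unadjusted p under 0.05, 17 of the 90 were lower in shPQBP1 (18.9%, against 11.7% of all genes) and 0 were higher (against 11.9% of all genes). Estimates lay below 0 for 62 genes and above 0 for 28, beside 5387 below and 6026 above for all 11413 genes. The median log2 fold change was -0.08 beside 0.02 for all genes tested. Where the 3 shPQBP1 samples were compared with the 3 shNC samples by overlap alone, 23 genes (25.6%, against 17.1% of all genes) had every shPQBP1 value below every shNC value and 6 genes (6.67%, against 17.3%) had every one above. The 17 lower genes were ALYREF, PUF60, SF3A2, SNRNP70, RBM22, SART1, DDX39B, BUD31, U2AF2, PPIH, SF3A1, SNRPF, DDX23, RP9, SNRPB, SNU13 and DHX16. They came from 8 of the 11 role groups into which the genes were sorted. The count rested in part on single libraries, since leaving out shPQBP1 sample 1 gave 9 lower genes and leaving out shPQBP1 sample 3 gave 10. Summing overlapping gene models, an alternative added after seeing the data, gave 16 lower genes of 89, with DDX39B not among them.

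**Figure D1:**
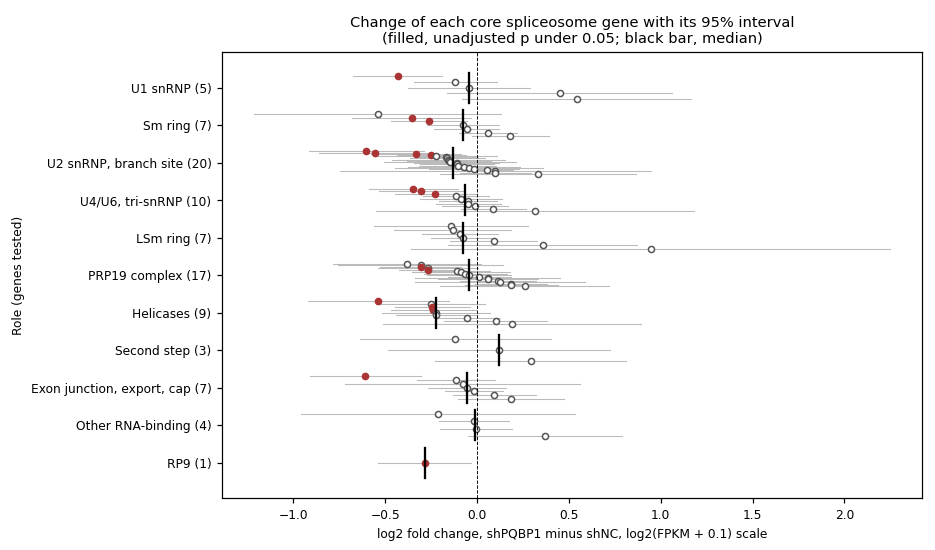
Log2 fold change of shPQBP1 against shNC on the log2(FPKM + 0.1) scale (horizontal axis) for the 90 core spliceosome genes tested, in 11 role groups (vertical axis, genes tested in brackets), with 95% limma intervals as grey lines, group medians as black bars and the 17 genes at an unadjusted p under 0.05 filled. All filled points lie to the left of 0, and the widest interval on the right belongs to LSM4.

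The largest differences were shared by a few genes that sit at different points of the pathway. ALYREF (ENSG00000183684), an adaptor that brings spliced mRNA to the export machinery, lies on chromosome 17 at 81887835 to 81891586 on the minus strand of hg38 and has 6 exons in the GENCODE annotation. It was at 86.4, 65.5 and 68.5 FPKM in shNC and at 49.99, 49.84 and 43.84 in shPQBP1. Sample 1 of shNC was the highest of the 6 and sample 3 of shPQBP1 the lowest, and the groups did not overlap. The mean was 34.8% lower, with a log2 fold change of -0.61 (SE 0.12, unadjusted p = 0.00252, adjusted p = 0.0597 in limma). This gene kept an unadjusted p under 0.05 in each of 18 alternative analyses, with adjusted p-values from 0.0159 to 0.210.

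SF3A2 (ENSG00000104897, chromosome 19, 2236824 to 2248655, plus strand), a subunit of the SF3a complex that helps U2 to engage the branch site, was at 28.6, 22.0 and 23.0 FPKM in shNC and at 15.9, 18.2 and 15.6 in shPQBP1 (log2 fold change -0.55, SE 0.13, adjusted p = 0.0739). PUF60, a splicing factor related to U2AF2 that acts at the 3′ splice site, was at 33.4, 25.0 and 26.7 and at 19.6, 19.0 and 17.0 (-0.60, SE 0.13, adjusted p = 0.0653). SNRNP70 (ENSG00000104852, chromosome 19, 49085419 to 49108605, plus strand), the U1-70K protein of the U1 snRNP, was at 46.3, 37.3 and 41.9 and at 30.5, 32.8 and 29.5 (-0.43, SE 0.10, adjusted p = 0.0775). In all 3 genes every shPQBP1 sample lay below every shNC sample, and sample 1 of shNC was the highest of the 6. With that sample left out, the log2 fold changes were -0.44 for SF3A2, -0.48 for PUF60 and -0.36 for SNRNP70, each still at an unadjusted p under 0.05.

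**Figure D2:**
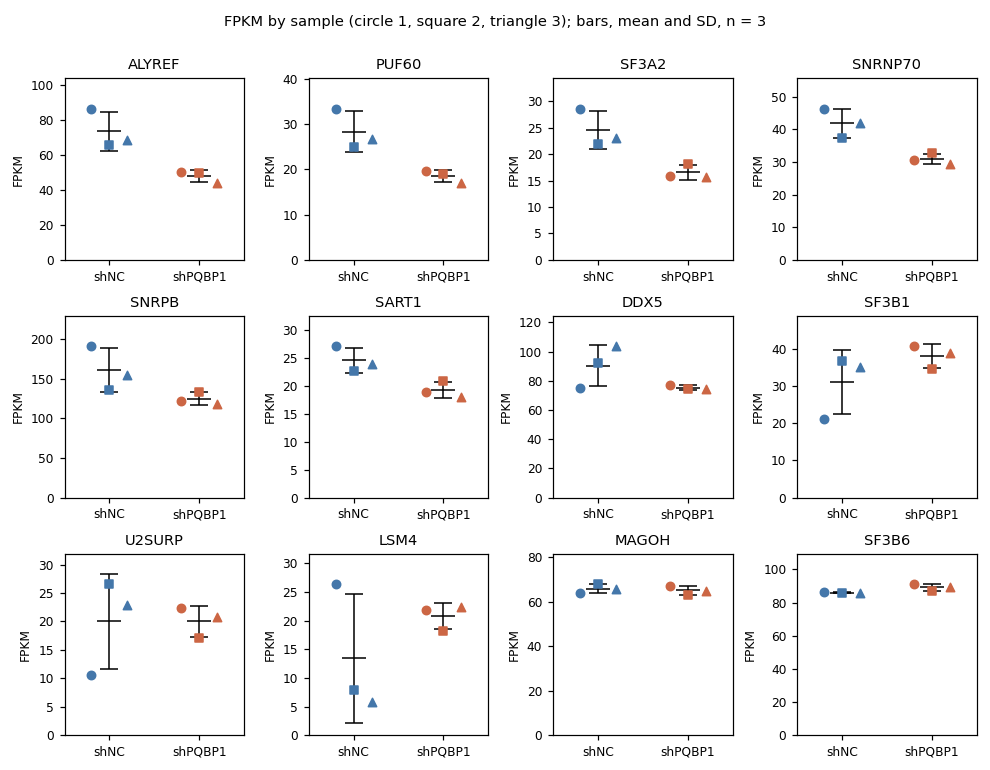
FPKM (vertical axis, from 0) of 12 core spliceosome genes in shNC (blue) and shPQBP1 (orange), with circle, square and triangle for samples 1, 2 and 3 and black bars for mean and SD (n = 3 per group). ALYREF, PUF60, SF3A2, SNRNP70, SNRPB and SART1 separate the groups, MAGOH and SF3B6 are level, and the circle of shNC lies apart for SF3B1, U2SURP and LSM4.

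Promoter sequence was looked at for what the lower genes share. RefSeq (GRCh38.p14) gave the 250 bases before the gene start for 79 of the 94 genes, 15 of them among the 17. Shown to let these stretches be compared are 3 of the lower genes whose stretch does not reach into the gene as GENCODE has it, 5′ to 3′ on the gene's strand, for ALYREF at chr17:81891588-81891837 (minus), SF3A2 at chr19:2236574-2236823 (plus) and SNRPF at chr12:95858702-95858951 (plus). Capitals mark the CCAAT box with the letters CCAAT, the GC box with the letters GGGCGG, the core bound by ETS factors with the letters CCGGAA and the TATA box with the letters TATAAA, each on either strand.
ALYREF: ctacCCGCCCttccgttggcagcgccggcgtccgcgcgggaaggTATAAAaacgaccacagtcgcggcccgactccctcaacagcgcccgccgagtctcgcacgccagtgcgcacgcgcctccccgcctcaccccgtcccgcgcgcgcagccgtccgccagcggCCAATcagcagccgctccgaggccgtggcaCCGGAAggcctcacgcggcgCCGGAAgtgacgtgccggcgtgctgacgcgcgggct
SF3A2: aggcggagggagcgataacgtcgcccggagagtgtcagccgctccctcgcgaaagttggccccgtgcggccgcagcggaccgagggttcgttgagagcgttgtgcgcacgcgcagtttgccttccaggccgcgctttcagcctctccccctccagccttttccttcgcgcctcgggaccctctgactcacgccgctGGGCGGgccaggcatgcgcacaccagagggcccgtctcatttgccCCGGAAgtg
SNRPF: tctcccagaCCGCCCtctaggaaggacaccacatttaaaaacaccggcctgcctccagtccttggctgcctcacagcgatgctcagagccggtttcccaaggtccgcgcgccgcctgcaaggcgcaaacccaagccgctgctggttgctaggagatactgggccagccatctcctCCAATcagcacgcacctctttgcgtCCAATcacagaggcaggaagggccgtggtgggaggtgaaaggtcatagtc

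The 3 stretches differ in what they hold. ALYREF has 2 matches of the ETS core close to its start, with 1 match each of the other motifs. SF3A2 has its 1 ETS core match at the end next to the start. SNRPF has none there and has 2 CCAAT matches. The ETS core stood in the stretches of 48 of the 79 core spliceosome genes (60.8%), against 27.5% of 8086 expressed genes with a promoter in the same table and 14.5% of all 34796 promoters. It stood in 11 of the 15 lower genes with a promoter, as did the GC box, while CCAAT stood in 4 and TATAAA in 2. The GC box was in 62.0% of core spliceosome genes against 69.3% of expressed genes, CCAAT in 39.2% against 35.7%, and TATAAA in 7.6% against 4.9%. No motif contains another, and a match is a description of the sequence and not a binding site.

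Among U1 snRNP proteins SNRNP70 was 1 of 5 tested at an unadjusted p under 0.05. SNRPC, the U1-C protein, had the highest level (mean 66.4 FPKM) and lay at 77.0, 67.6 and 63.3 in shNC and at 60.4, 66.0 and 64.4 in shPQBP1, with overlap. The U1-A protein SNRPA was close to level (log2 fold change -0.04). The U1-associated protein RBM25 was at 6.44, 11.1 and 11.4 FPKM against 15.4, 12.8 and 10.6 (0.45, SE 0.25, adjusted p = 0.314), with overlapping groups and the low shNC value in sample 1. Without that sample its estimate was 0.19.

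The Sm proteins form the ring that surrounds the U1, U2, U4 and U5 snRNAs, and 2 of their 7 genes, SNRPB and SNRPF, were lower at an unadjusted p under 0.05. SNRPB, which encodes SmB, was the most abundant of them, at 191, 136 and 155 FPKM in shNC and 122, 134 and 118 in shPQBP1 (-0.36, SE 0.13, adjusted p = 0.182). SNRPF was at 24.7, 26.0 and 24.0 and at 20.04, 22.7 and 19.6 (-0.26, SE 0.09, adjusted p = 0.147). The ring did not move as a unit. SNRPD1 was higher in every shPQBP1 sample (29.9, 27.4 and 26.9 against 24.2, 23.2 and 26.7) with a log2 fold change of 0.18 (unadjusted p = 0.0791), which became -0.01 once the trend on GC content and length was removed. SNRPD3, SNRPE and SNRPG had estimates of -0.06, 0.06 and -0.08. SNRPD2 had the lowest estimate of the ring (-0.54) with the groups overlapping, because shNC sample 3 was at 75.9 FPKM beside 45.0 and 34.2 in the other shNC samples and 32.5, 35.4 and 32.9 in shPQBP1.

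The LSm proteins form the ring at the 3′ end of U6 snRNA, and 0 of 7 passed an unadjusted p of 0.05 in limma. LSM2 had the highest level of the ring (29.7, 22.7 and 22.6 FPKM against 21.1, 22.3 and 24.6). LSM3, LSM6 and LSM7 had estimates between -0.14 and -0.07, LSM5 of 0.09, and LSM8, the member that defines the nuclear ring, was the lowest expressed at 1.24 FPKM. LSM4 had the largest estimate of all 90 genes (0.95, SE 0.54, unadjusted p = 0.127) and the most uneven control group, at 26.4, 7.92 and 5.84 FPKM in shNC and 21.9, 18.2 and 22.4 in shPQBP1. The control value of sample 1 was 3.84 times the mean of the other shNC samples. Without that sample the LSM4 estimate was 1.59 with an adjusted p of 0.0183, so a single control library decided this call.

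The U2 snRNP and branch site proteins were the largest group, and 16 of their 20 tested genes had estimates below 0 (median -0.13), with PUF60, SF3A2, U2AF2 and SF3A1 lower at an unadjusted p under 0.05. U2AF2, the U2AF subunit that binds the polypyrimidine tract, was at 73.6, 60.4 and 59.5 FPKM in shNC and 49.4, 53.0 and 50.4 in shPQBP1 (-0.33, SE 0.10, adjusted p = 0.130). The SF3a subunits SF3A1 (26.7, 24.3 and 24.5 against 20.9, 22.3 and 20.4) and SF3A3 (86.7, 79.7 and 80.6 against 74.2, 76.1 and 69.6) had groups that did not overlap, so that all 3 SF3a subunits lay lower in every shPQBP1 sample, although SF3A3 missed the unadjusted threshold in limma (log2 fold change -0.17).

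The SF3b complex, which holds the branch site helix, showed no such order. SF3B4, the most abundant gene of the group at 104 FPKM, was at 117, 103 and 102 in shNC and 93.3, 105 and 101 in shPQBP1 (-0.10). SF3B2 and SF3B5 had estimates of -0.15 and -0.22 with overlap, and PHF5A was level (-0.01). SF3B1, the large subunit that is often mutated in cancer, was at 21.3, 36.9 and 35.2 against 40.8, 34.7 and 39.0 (0.33, SE 0.22, unadjusted p = 0.179), with sample 1 of shNC the low value, and its estimate without that sample was 0.08. SF3B3 had an estimate of 0.10. SF3B6, a small subunit at the branch site, was at 86.2, 86.0 and 86.0 against 91.3, 87.2 and 89.6, higher in every shPQBP1 sample by a log2 fold change of 0.05 that turned to -0.13 after the GC content and length correction.

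The other U2-related genes had estimates of -0.16 for CHERP, -0.16 for the U2-A′ protein SNRPA1, -0.11 for the U2-B′′ protein SNRPB2, -0.11 for SMNDC1 and -0.07 for RBM17. Without shNC sample 1 the SNRPA1 estimate was -0.27. U2SURP was uneven among controls, at 10.50, 26.6 and 22.9 FPKM against 22.3, 17.0 and 20.7 in shPQBP1, and the sign of its estimate rested on the first of them. The estimate was 0.10 on all samples and -0.31 without shNC sample 1 (unadjusted p = 0.0784 in limma). With the GC content and length correction on those 5 samples, an analysis added after seeing the data, it was -0.40 with an adjusted p of 0.0420.

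The U4/U6 and tri-snRNP proteins had 8 of 10 estimates below 0, and 3 were lower at an unadjusted p under 0.05. SART1, a tri-snRNP protein needed for its entry, was at 27.0, 22.6 and 23.9 FPKM in shNC and 18.9, 20.8 and 18.0 in shPQBP1 (-0.35, SE 0.10, adjusted p = 0.120). PPIH, a cyclophilin bound to the U4/U6 snRNP, was at 36.2, 29.6 and 31.1 against 25.5, 25.9 and 26.6 (-0.31, SE 0.09, adjusted p = 0.132). SNU13, which binds the U4 snRNA, was at 37.8, 43.4 and 35.6 against 33.7, 32.6 and 33.0 (-0.23, SE 0.09, adjusted p = 0.202). The U4/U6 proteins PRPF3 and PRPF4, which form 1 complex with PPIH, did not share its size of difference, with estimates of -0.05 and 0.09. ZMAT2, the most abundant of the group at 91.5 FPKM, was level (-0.05), as was USP39 (-0.01). PRPF38A and SNRNP27 had estimates of -0.11 and -0.09. PRPF38B was at 4.03 in shNC sample 1 and between 8.44 and 10.4 in the other 5 samples, and its estimate of 0.32 became -0.12 without that sample.

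Among the PRP19 complex and related proteins 2 of 17 were lower at an unadjusted p under 0.05 and the estimates were nearly evenly split, 9 below and 8 above 0. RBM22, which touches U6 and the intron in the active spliceosome, had the smallest SE of the 17 lower genes, at 27.2, 26.7 and 26.7 FPKM in shNC and 23.3, 21.9 and 21.9 in shPQBP1 (-0.26, SE 0.07, adjusted p = 0.0938). BUD31 was at 17.0, 14.0 and 15.5 against 12.7, 12.3 and 12.3 (-0.31, SE 0.09, adjusted p = 0.126). Neither rests on the first control, with estimates of -0.26 and -0.24 without it. CCDC12 had the largest estimate below 0 of the group without overlap (7.88, 6.19 and 6.43 against 5.55, 6.01 and 4.19, -0.38, unadjusted p = 0.0594). SYF2 (14.6, 17.6 and 17.9 against 19.9, 18.1 and 18.8, 0.19) and CWC15 (0.18) were higher in every shPQBP1 sample, and after the GC content and length correction their estimates were 0.00 and 0.02. PRPF19, the ubiquitin ligase that names the complex, was at 57.1, 51.5 and 52.4 against 48.0, 49.2 and 52.0 (-0.11). The scaffold CDC5L was at 12.2 FPKM in shNC sample 1 and between 17.7 and 20.8 in the others, with an estimate of 0.26 that became 0.05 without it, while CTNNBL1 had an estimate of -0.27 and PPIE, XAB2, SNW1, PPIL1, CRNKL1, AQR, PLRG1 and BCAS2 ran from -0.08 to 0.12.

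Of 9 spliceosomal helicases 3 (DDX23, DHX16 and DDX39B) were lower at an unadjusted p under 0.05, with a median estimate of -0.22. The lower DDX39B value did not hold once its readthrough gene was added, as given further on. DDX23, the helicase that frees U1 from the 5′ splice site, was at 25.7, 23.7 and 24.2 FPKM in shNC and 20.6, 22.3 and 19.2 in shPQBP1 (-0.24, SE 0.08, adjusted p = 0.161). DHX16, the human PRP2 that activates the spliceosome, was at 20.2, 17.3 and 16.6 against 14.9, 15.8 and 14.99 (-0.24, SE 0.10, adjusted p = 0.207). DHX8, which releases the spliced mRNA, did not overlap between groups either (-0.22, unadjusted p = 0.0505). DHX38 and DHX15 had estimates of -0.06 and 0.10. The most abundant helicase, DDX5, was at 75.3, 92.5 and 103.7 FPKM in shNC and 77.5, 74.4 and 74.1 in shPQBP1 (-0.25, SE 0.12, adjusted p = 0.266). Here the first control lay with the shPQBP1 samples. DDX42, which acts with SF3B1, had the same arrangement (18.6, 24.9 and 23.7 against 19.0, 18.7 and 19.4, -0.22), and without shNC sample 1 its estimate was -0.35 with an adjusted p of 0.0446. DDX46 was at 8.82 FPKM in shNC sample 1 and between 14.6 and 18.7 in the others, and its estimate of 0.19 became -0.15 without that sample.

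The remaining groups held few genes that differed. None of the second step factors SLU7, PRPF18 and CDC40 passed an unadjusted p of 0.05 in limma (0 of 3), and SLU7, which helps to select the 3′ splice site, was at 9.73, 16.4 and 16.4 FPKM against 18.0, 15.5 and 17.3 (0.29, and 0.04 without shNC sample 1). Of the exon junction, mRNA export and cap-binding genes ALYREF was 1 of 7. The exon junction core genes had small estimates. MAGOH was at 63.7, 67.9 and 65.7 against 67.1, 63.0 and 64.9 (-0.02, 95% interval from -0.18 to 0.14), and RBM8A had an estimate of -0.05. The close copy MAGOHB was at 6.22, 7.89 and 7.90 against 8.78, 7.94 and 8.21 (0.18, unadjusted p = 0.168). ACIN1, NCBP1 and NCBP2 had estimates of -0.11, 0.09 and -0.08. RP9, which stands outside the other role groups, was at 8.04, 7.13 and 6.57 against 6.30, 5.58 and 5.88 (-0.28, SE 0.10, adjusted p = 0.176). Without shNC sample 1 it was the only one of the 17 lower genes above an unadjusted p of 0.05. PCBP1, a poly(C)-binding protein, was at 158, 135 and 141 FPKM against 139.6, 150.5 and 141 (-0.0048). RBMX and its close copy RBMXL1 had estimates of -0.02 and -0.21, with RBMXL1 at 3.14 FPKM in shPQBP1 sample 1 and between 4.58 and 6.80 elsewhere.

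**Figure D3:**
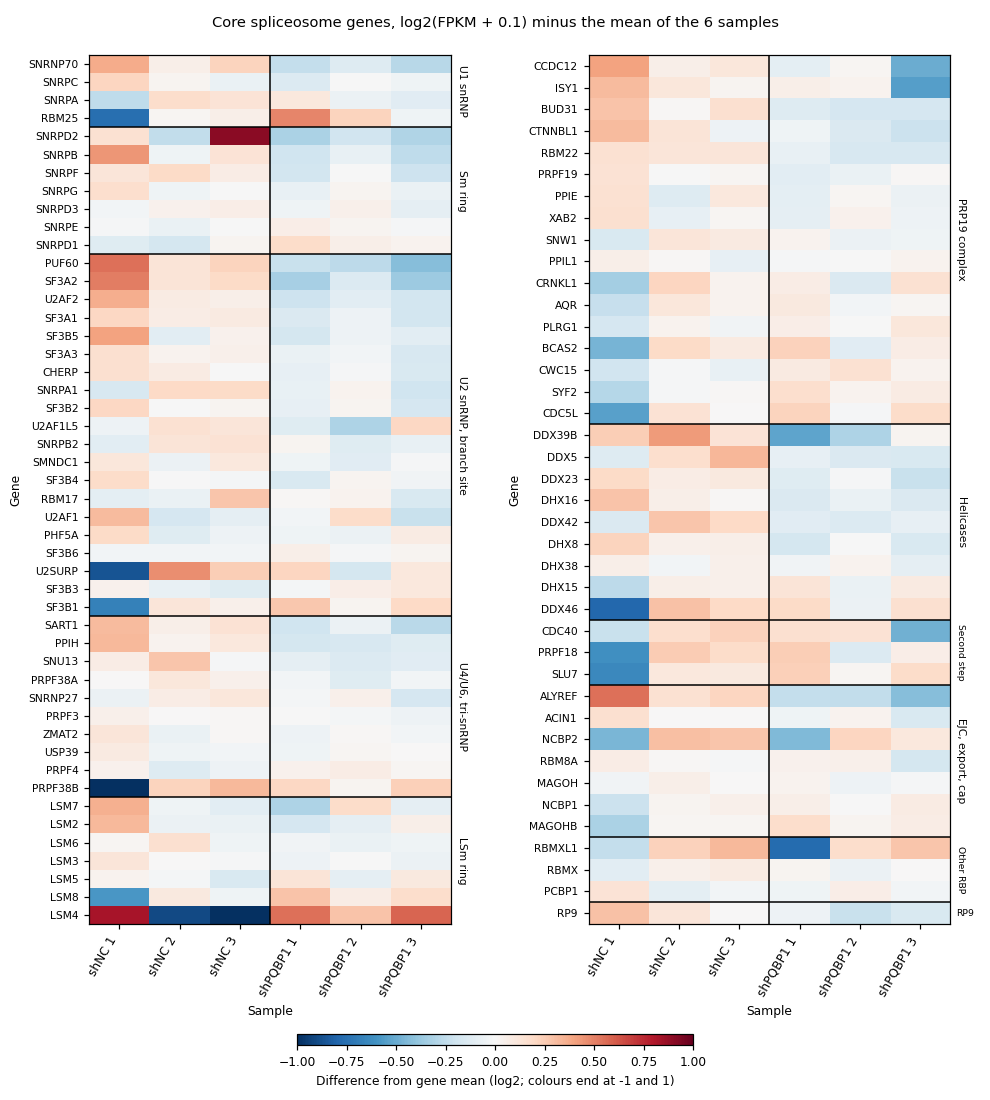
Core spliceosome genes tested (rows, in role groups and sorted by log2 fold change within them) in the 6 samples (columns), coloured by log2(FPKM + 0.1) minus the gene's mean over the samples, with colours ending at -1 and 1. The first column, shNC sample 1, holds most of the strongest colours, red for genes such as ALYREF, PUF60 and SF3A2 and blue for genes such as U2SURP, PRPF38B and DDX46.

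Sample 1 of shNC was the highest of the 6 samples in 43 of the 90 genes and the lowest in 25, and its deviation followed the base composition of the transcripts. Across the 90 genes, the difference of that sample from the other shNC samples had a Spearman's rho of 0.732 with GC content. The log2 fold change of shPQBP1 against shNC had a rho of -0.626 with GC content, beside -0.459 over 11385 genes, and of -0.335 without shNC sample 1. These correlations are across genes of the same libraries, which are not independent replicates, and are given as descriptions.

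The lower genes were mostly rich in G and C. Of 35 core spliceosome genes with a transcript GC content of at least 50%, 34 had estimates below 0 (median -0.23) and 14 were lower at an unadjusted p under 0.05. Of the 55 genes below 50% GC, 28 had estimates below 0 (median -0.01) and 3 (RBM22, PPIH and SNRPF) were lower. Over all genes tested, estimates lay below 0 for 3256 of 4802 genes of at least 50% GC (median -0.12). Below 50% GC they did so for 2119 of 6583 genes (median 0.13). In each class the core median lay below that of all genes. At an unadjusted p under 0.05, 19.4% of all genes of at least 50% GC were lower and 6.5% higher. Among all genes below 50% GC, 6.14% were lower and 15.8% higher. Against these shares the GC-rich core spliceosome genes (40.0% lower and 0.0% higher) held more lower genes than GC-rich genes as a whole, and the others (5.45% lower and 0.0% higher) held about as many lower genes and fewer higher ones. No test of these shares was made.

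**Figure D4:**
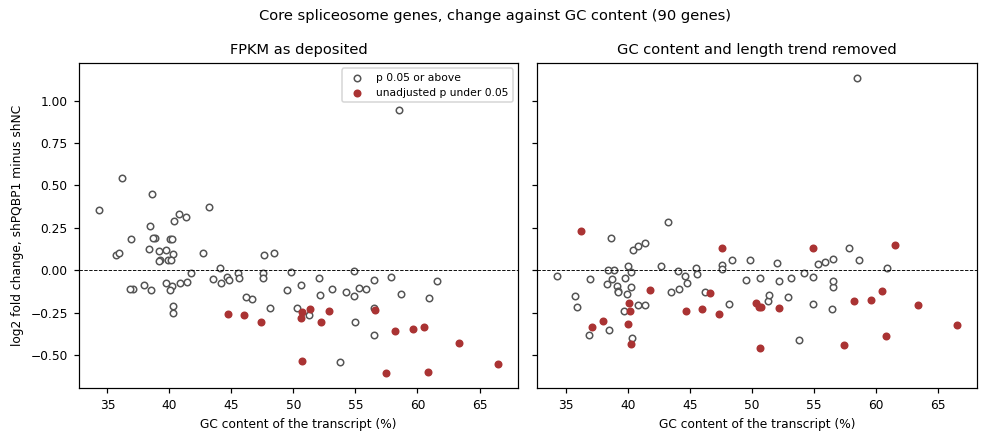
Log2 fold change of shPQBP1 against shNC (vertical axis) against the GC content of the transcript in percent (horizontal axis) for the 90 core spliceosome genes tested, for FPKM as deposited (left) and after the trend of each sample on GC content and length was removed (right), with genes at an unadjusted p under 0.05 filled. The slope on the left (rho -0.626) is gone on the right (rho 0.064), where filled points are spread over the whole GC range.

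With the trend of each sample on GC content and transcript length removed, the genes still leaned lower. At an unadjusted p under 0.05, 23 of 90 were lower (25.6%, against 12.0% of all genes) and 4, among them XAB2, PCBP1 and PRPF4, were higher (4.44%, against 15.7%), with a median log2 fold change of -0.10 beside 0.03 for all genes. By adjusted p 6 genes were lower (6.67%, against 3.28%), namely ALYREF (-0.44, adjusted p = 0.0159), SF3A2 (-0.32, 0.0166), DDX5 (-0.43, 0.0218), PUF60 (-0.39, 0.0310), PPIH (-0.26, 0.0350) and SNRPB2 (-0.34, 0.0462), and 0 were higher (against 4.96%). SNRNP70 did not pass there (-0.21, adjusted p = 0.0891). The correction also brought other lower genes closer to 0, with estimates of -0.12 for U2AF2, -0.18 for SART1, -0.18 for SNRPB, -0.16 for DDX23, -0.10 for DHX16 and -0.15 for SNU13, the last 3 at unadjusted p-values of 0.0557, 0.0807 and 0.271 in limma. It moved PRPF38A to -0.32, SNRNP27 to -0.30, LSM6 to -0.24, AQR to -0.19 and MAGOH to -0.12, each at an unadjusted p under 0.05. In the same analysis all 5 expressed markers of the epithelial list, VIM among them, were higher at an adjusted p under 0.05 (median log2 fold change 0.32). WT1 and EPCAM of that list, too low to be tested, were lower in the mean of the deposited FPKM. The part of these markers in the result was not tested. Without shNC sample 1 and without the correction, SNRPB was at -0.22 and DHX16 at -0.15. Leaving out shNC sample 1 in place of the correction gave 20 lower genes (22.2%, against 11.2%) and 1 higher gene, LSM4 (1.11%, against 13.6%). All of the 17 but RP9 were among those 20, which also held DDX5, DDX42, SNRPA1 and SNRPB2. By adjusted p this fit called 3 genes (3.33%, against 4.07%), which were ALYREF and DDX42 as lower and LSM4 as higher.

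Some members share reads with another gene model, and for these the FPKM of single models can mislead. DDX39B, the helicase UAP56 of early spliceosome assembly and mRNA export (chromosome 6, 31530219 to 31542448, minus strand), was at 30.5, 34.5 and 28.2 FPKM in shNC and 17.8, 20.7 and 26.2 in shPQBP1 (-0.54, SE 0.16, unadjusted p = 0.0136). The readthrough gene ATP6V1G2-DDX39B, which contains its exons, ran the other way, at 4.51, 3.85 and 9.70 in shNC and 31.7, 16.5 and 3.61 in shPQBP1. Summed, both models were at 35.1, 38.3 and 37.9 against 49.5, 37.2 and 29.8, a log2 fold change of 0.04 (SE 0.18, unadjusted p = 0.847), so the lower DDX39B value did not hold for the locus as a whole. ISY1 was at 9.12 FPKM in shPQBP1 sample 3, the lowest of the 6, and in that sample alone ISY1-RAB43 was at 4.01 rather than 0. The sum there was 13.1, next to 13.7 to 16.8 in the other 5 samples. U2AF1, the small U2AF subunit, and its near-identical copy U2AF1L5 had single estimates of -0.04 and -0.15 and together were at 19.0, 17.2 and 17.4 against 16.4, 16.7 and 17.3 (-0.09, unadjusted p = 0.274). Named pseudogenes of SNRPE and SNRPG summed to 16.7 to 25.7 and 27.95 to 40.77 FPKM, so the levels of these Sm genes are uncertain too. SNRPB shares near-identical coding sequence with SNRPN, and without a stated strand setting reads of genes on opposite strands cannot be told apart.

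**Figure D5:**
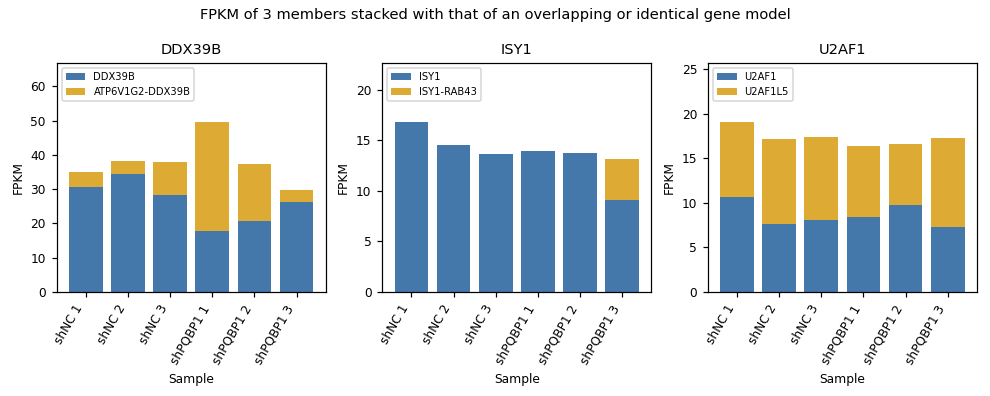
Stacked FPKM (vertical axis, from 0) of DDX39B, ISY1 and U2AF1 (blue) and of ATP6V1G2-DDX39B, ISY1-RAB43 and U2AF1L5 (yellow) in each of the 6 samples (horizontal axis). In shPQBP1 samples 1 and 2 the readthrough model takes 31.7 and 16.5 FPKM of the DDX39B locus, and the stacked U2AF1 bars all lie between 16.4 and 19.0.

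Other genes of the splicing pathway are given beside the shares over all genes, 11.7% lower and 11.9% higher, and differences between the lists were not tested. Of 35 expressed genes of the same KEGG map that the rule set aside, 8 were lower and 1 higher at an unadjusted p under 0.05, and PQBP1 was the 1 that passed the adjusted threshold (4 genes after the GC content and length correction, all lower). Of 11 minor spliceosome proteins, which remove the rare U12-type introns, 0 passed an unadjusted p of 0.05 in limma in either direction. Among 18 snRNP assembly and recycling factors 4 were lower and 0 higher. These were the SMN complex proteins GEMIN4 (9.35, 7.52 and 7.01 FPKM against 5.03, 5.94 and 5.91, -0.49, SE 0.14, adjusted p = 0.113) and GEMIN7 (-0.36), the methylosome protein WDR77 (-0.36, adjusted p = 0.0680) and the Cajal body protein COIL (-0.31). Among 33 splicing factors outside the map 7 were lower and 1, MFAP1 (0.26), was higher. CACTIN had the largest estimate below 0 without overlap (-0.37, adjusted p = 0.139) and FRA10AC1 the largest above (0.43, adjusted p = 0.234). Without the correction, no gene of these last 3 lists passed the adjusted threshold. After the GC content and length correction WDR77 (adjusted p = 0.0177 in limma), COIL (0.0434) and CWF19L1 (0.0332), a splicing factor outside the map, passed it as lower. At an unadjusted p under 0.05 in that analysis, beside 12.0% lower and 15.7% higher over all genes, the genes set aside from the map held 10 lower and 1 higher, the assembly factors 5 and 0, the factors outside the map 3 and 2, and the minor spliceosome proteins 1 and 1.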

How the data were processed

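RNA-seq of 3 shNC and 3 shPQBP1 HEY samples was used. The submitters' processing notes name HISAT2 2.2.0, SAMtools 1.9, StringTie 1.3.0, edgeR and hg38. The annotation release, strand setting and StringTie options are not given in the sources used here. The authors deposited 1 table of FPKM values per gene and sample, with columns of their own fold change, p-value and q-value, which were not used. No other column of per-sample values was left out (0). FPKM is scaled by the mapped fragments of each library, so values are relative, although their sums differ between samples. No step of whole reads could be found in the low FPKM values (best step strength 0.278 to 0.320), so depth is unknown, no count test was run and no interval for counting error is given.

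Values were analysed as log2(FPKM + 0.1), which understates changes of low genes, for genes with a mean of at least 1 FPKM. limma 3.58.1 (R 4.3.3) with a mean-variance trend was fitted to all 11413 genes, two-sided, with Benjamini-Hochberg adjustment, and only rows of this gene group are printed. A transcript's GC content and length came from GENCODE 44 (hg38) by gene ID, for 99.75% of the genes tested, and for the correction a spline with 5 degrees of freedom in each was removed per sample. In data simulated on these samples, with 187 tested genes changed by 1.5 on the log2 scale, 78.6% were recovered and 3.9% of calls were false. The planted change is larger than any core estimate on all 6 samples (-0.61 to 0.95), so the recovery rate does not apply to changes of that size. The simulated noise was independent between genes and lacked the GC-linked deviation of shNC sample 1, so the false share may differ in the real data. The members, role lists and other lists were chosen with earlier results of these data known. Genes were named in the text if, within their role, they had the highest level or the largest rise or fall without overlap of groups, had a close copy, or failed the filter. The others were named afterwards, and some members, counted with the rest, are not reported here by name.

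Alternatives were 2 other scalings, 2 other filters, 2 other pseudocounts (1 and 0.01), no trend, the replicate number as a block, the GC content and length correction, both of these together, and leaving out each sample. Added after the data were seen were the correction without shNC sample 1 and summed overlapping gene models. Promoters came from RefSeq.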

Additional observations from a re-analysis of the deposited data

How the results depend on the processing

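The direction of the median log2 fold change of the core spliceosome genes stayed below 0 in each alternative run, whereas the number of calls depended on the analysis. Genes at an adjusted p under 0.05, 332 of all genes and 0 of the core genes, numbered 190 without a filter, 211 and 2 (ALYREF and PUF60) at a mean of at least 10 FPKM, 1 core gene (ALYREF) after quantile normalization, 938 and 6 after the GC content and length correction, and 766 and 6 after that correction on 5 samples without shNC sample 1, an analysis added after seeing the data whose 6 held LSM4 as higher. Leaving out 1 sample gave 30 (without shPQBP1 sample 3) to 466 (without shNC sample 1) of all genes and 0 to 3 core genes. Core genes at an unadjusted p under 0.05, 17 in the analysis reported, numbered 27 and 26 under those corrections and 9 to 21 with 1 sample left out. Their median was -0.10 after quantile normalization, -0.10 and -0.11 under the corrections, and -0.095 to -0.060 with 1 sample left out. Of 529 alternative values of the named genes, 480 kept direction and side of the adjusted threshold, 9 passed it where the reported value had not, 2 lost it and 38 changed sign. None of the sign changes belonged to a core gene called at an unadjusted p under 0.05 except DDX39B, and the cause was not tested for the others.

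Samples of the same number did not deviate together (correlations -0.186 to -0.011), and no sample correlated best with its own number. Deviations of so few samples per group depend on each other, so this check cannot decide whether the numbers pair the samples. The analysis reported treats the samples as unpaired. With the replicate number as a replicate block, 0 of all genes passed the adjusted threshold and 11 core genes the unadjusted one, and PQBP1 kept its estimate of -2.04 (adjusted p = 0.0686). With the replicate block and the GC content and length correction together, 21 of all genes passed, the median of the core genes was -0.10 and PQBP1 was at -1.86 (adjusted p = 0.0543).

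Among the 30 genes behind the 529 alternative values, the values after a change of sign were small. U2SURP, PRPF38B and DDX46 are outside that count and also changed sign, to -0.31, -0.12 and -0.15 without shNC sample 1. Summing overlapping gene models, an alternative added after seeing the data, gave DDX39B 0.037. The GC content and length correction, with and without the block, gave MAGOHB -0.049, PCBP1 0.13, PRPF19 0.046, RBMX 0.011, SF3B4 0.036, SF3B6 -0.13, SNRPD1 -0.012 and U2AF1 0.040. On 5 samples it gave LSM2 0.011, MAGOHB -0.016, PCBP1 0.11, PRPF19 0.0077, SF3B4 0.0072, SF3B6 -0.048, SLU7 -0.034 and U2AF1 0.092. Quantile normalization gave PCBP1 0.030. Leaving out 1 sample gave MAGOH -0.041 to 0.0058, PCBP1 -0.055 to 0.061, RBMX -0.075 to 0.017, RBMXL1 -0.40 to 0.12, U2AF1 -0.14 to 0.10 and ZMAT2 -0.092 to 0.0022. No depth is known for these libraries, so small differences of low genes cannot be told from counting error.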
